A study of Homo sapiens with 8 samples.

Results

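The miR-23/27/24 genes lie in paralogous clusters, and their mature arms were picked by name from the scanner output of 8 miRNA arrays. The members were 7 of the 2549 human miRNAs on the array: hsa-miR-23a-3p, hsa-miR-27a-3p, hsa-miR-23a-5p and hsa-miR-27a-5p of the a cluster, hsa-miR-23b-3p and hsa-miR-27b-3p of the b cluster, and hsa-miR-24-3p, which both clusters encode. Of these, 5 were detected on all 8 arrays, and both 5p arms were detected on none. INA-6 is an established human multiple myeloma (MM) cell line that is grown with interleukin-6, and each group was cultured with it for 120 h. The 4 DMSO arrays held RNA of cells given the solvent, and the 4 UNC1999 arrays held RNA of cells given 1 μM of UNC1999, a small-molecule inhibitor of the histone methyltransferase EZH2. The control is DMSO by the titles but the inactive compound UNC2400 by the treatment text, and it was taken as DMSO. All samples came from 1 cell line, so that donors were not compared. All arrays lay on 1 slide.

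A microRNA (miRNA) is cut from a hairpin transcript and guides silencing proteins to mRNAs that pair with its seed, the bases near its 5′ end. Each miR-23/27/24 cluster is transcribed as 1 primary RNA in the order miR-23, miR-27, miR-24, from which the separate hairpins are cut. The family is known in blood cells for a role of the a cluster in the choice between myeloid and B-lymphoid development, and miR-23 is known as a miRNA that c-MYC represses. EZH2 is the catalytic subunit of a polycomb complex that methylates histone H3 at lysine 27 and silences genes.

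The mature sequences are shown because they define which members can recognise the same mRNAs and how little separates the paralogs, which had separate probes. They are RefSeq sequences, written 5′ to 3′, with the seed (bases 2 to 8) in capitals, and 7 of 7 members matched.
hsa-miR-23a-3p: aUCACAUUgccagggauuucc
hsa-miR-23b-3p: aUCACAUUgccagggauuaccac
hsa-miR-27a-3p: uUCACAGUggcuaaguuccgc
hsa-miR-27b-3p: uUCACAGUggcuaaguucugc
hsa-miR-24-3p: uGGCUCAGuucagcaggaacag
hsa-miR-23a-5p: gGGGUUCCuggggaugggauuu
hsa-miR-27a-5p: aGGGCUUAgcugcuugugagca
The miR-23 paralogs shared their seed and differed over the 21 bases compared by U19A, with hsa-miR-23a-3p named first and positions counted from 1 at the 5′ end, and hsa-miR-23b-3p was 2 bases longer. The miR-27 paralogs shared another seed and differed by C19U, with hsa-miR-27a-3p named first. Each pair thus differed by 1 base among those compared, outside the seed, and how far the array probes tell such paralogs apart was not tested. miR-23c also carried the miR-23 seed and was detected on 1 of 8 arrays, a DMSO array.

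In GRCh38.p14 the a cluster spans 373 bases on the minus strand of chromosome 19, within the long non-coding RNA gene MIR23AHG. MIR23A lies at chr19:13836587-13836659, MIR27A at chr19:13836440-13836517 and MIR24-2 at chr19:13836287-13836359. The b cluster spans 881 bases on the plus strand of chromosome 9, within the bounds of the protein-coding gene AOPEP. MIR23B lies at chr9:95085208-95085304, MIR27B at chr9:95085445-95085541 and MIR24-1 at chr9:95086021-95086088. The miR-24 hairpins are shown because they explain why a single array value stands for both clusters. They differ in bases outside the mature 3p arm, in the loop and elsewhere, but hold the same mature hsa-miR-24-3p, in capitals here.
MIR24-1: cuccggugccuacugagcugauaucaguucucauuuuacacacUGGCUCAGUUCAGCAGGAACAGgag
MIR24-2: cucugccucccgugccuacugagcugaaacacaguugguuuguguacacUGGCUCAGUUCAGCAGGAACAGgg
The signal of hsa-miR-24-3p could therefore not be divided between the clusters.

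**Figure D1:**
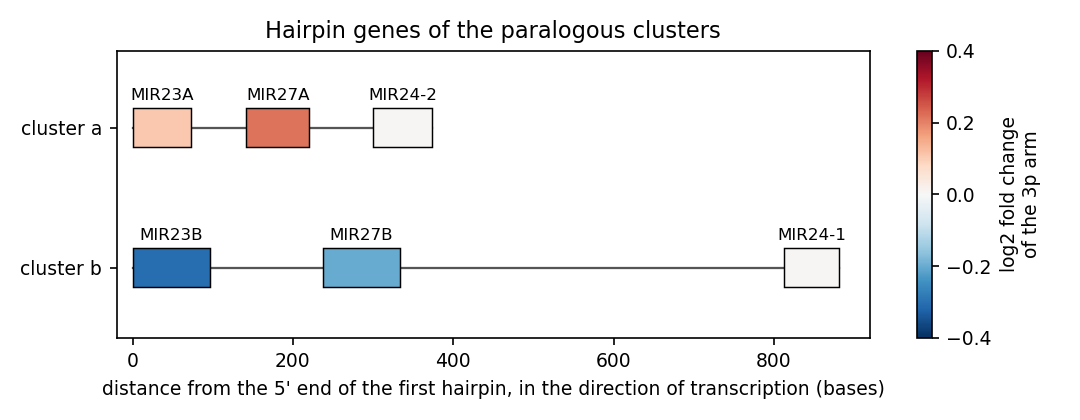
Hairpin genes of the a cluster (top) and b cluster (bottom) to scale, by distance in bases from the 5′ end of the first hairpin, coloured by the log2 fold change of the 3p arm, UNC1999 minus DMSO. Both miR-24 genes carry the 1 value of hsa-miR-24-3p (0.0055), the a cluster's other arms had positive values (0.11 and 0.22) and those of the b cluster negative values (-0.30 and -0.20), of which hsa-miR-23b-3p alone passed the test.

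Levels are given as log2 of the array signal after scaling by the array's own 75th percentile, taken over the 346 miRNAs found on every array, and return to a common scale. A difference is the UNC1999 mean minus the DMSO mean, and a miRNA was called when limma's adjusted p (Benjamini-Hochberg over 456 tested miRNAs) was at most 0.05 and the fold at least 1.2. Probes differ in brightness, so levels of different miRNAs were not ranked. The 75th percentile before scaling was 474, 349, 296 and 559 on DMSO replicates 1 to 4 and 686, 708, 729 and 534 on UNC1999 replicates 1 to 4, so that most UNC1999 arrays were brighter (exact permutation test, two-sided, p = 0.057). On a second principal component with 15% of the variance the arrays of each group fell into alike pairs, DMSO 1 with 4 and 2 with 3, UNC1999 1 with 3 and 2 with 4. Whether alike arrays held separate RNA samples could not be told from their values. They were counted separately because the titles call them biological replicates 1 to 4 and the study describes independent experiments. Beyond that the labels do not say which cultures the arrays came from, so p-values measure the spread between these samples. The blood-cell miRNAs miR-142-3p, miR-142-5p, miR-150-5p and miR-223-3p were detected on all 8 arrays and miR-155-5p on 2 UNC1999 arrays only, while the 7 miRNAs taken as marks of liver, muscle, neurons, epithelia, smooth muscle and red cells were detected on none.

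After UNC1999, the detected members moved little one by one. hsa-miR-23b-3p was lower, hsa-miR-24-3p had a difference near 0, and the other 3 did not pass the test. Within the same arrays the ratio of a to b paralog rose by about 1.3-fold for miR-23 and for miR-27 (0.41 and 0.42 on the log2 scale, or 0.22 and 0.23 with normexp background correction at an offset of 50). Changes at least as large as that of miR-23, in either direction, were found in 62.6% of all pairs of miRNAs detected on all arrays, so this is not a result particular to the family. No member was called higher, where 36% of all tested miRNAs were, and 1 was called lower, where 34.6% were. Of all tested miRNAs 70.6% were called in either direction. The median difference was 0.0055 over the 5 tested members and 0.011 over all 456.

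hsa-miR-23b-3p, the first hairpin of the b cluster, stood at 7.56, 7.32, 7.27 and 7.55 on DMSO replicates 1 to 4. On UNC1999 replicates 1 to 4 it stood at 7.23, 7.17, 7.09 and 7.004. Every UNC1999 value lay below every DMSO value, and groups did not overlap for 65.4% of all tested miRNAs. The means were 7.43 ± 0.15 and 7.12 ± 0.10 (SD, n = 4), a difference of -0.30 (SE 0.11, limma adjusted p = 0.027). Its probes gave -0.31 and -0.28. Of 24 alternatives, 11 kept the direction and the call. With the 75th percentile taken over all human miRNAs the difference was -0.08 (limma adjusted p = 0.68), with alike arrays averaged its adjusted p was 0.23 by limma, and without scaling or with spike-ins its sign turned. The call was lost without DMSO replicate 1 (-0.26, limma adjusted p = 0.075), DMSO replicate 4 (-0.26, 0.076), UNC1999 replicate 3 (-0.30, 0.053) or UNC1999 replicate 4 (-0.27, 0.065). The difference was negative within both rows of the slide, -0.47 in the row of 3 DMSO arrays and 1 UNC1999 array and -0.11 in the row of 1 and 3, and with the row as a block it was -0.29 and not called (limma adjusted p = 0.081).

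hsa-miR-27b-3p, its neighbour in the b cluster, measured 8.11, 7.93, 7.78 and 8.23 on the DMSO arrays. The UNC1999 arrays gave 7.97, 7.72, 7.77 and 7.79. The groups overlapped, since DMSO replicates 2 and 3 lay among the UNC1999 values. The difference was -0.20 (SE 0.12, limma adjusted p = 0.15), with a 95% interval of -0.46 to 0.06. Without DMSO replicate 3 it was -0.33 and was called lower (limma adjusted p = 0.015), without DMSO replicate 4 it was -0.13, and with the percentile over all human miRNAs 0.02. Within slide rows it was -0.30 and 0.04.

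In the a cluster, hsa-miR-23a-3p read 7.73, 7.21, 7.16 and 7.48 after DMSO. It read 7.61, 7.47, 7.52 and 7.42 after UNC1999. The UNC1999 values lay inside the DMSO range. The difference was 0.11 (SE 0.13, limma adjusted p = 0.47), with a 95% interval of -0.19 to 0.40, which still holds changes as large as that of hsa-miR-23b-3p with the sign turned. The difference was -0.02 without DMSO replicate 3, 0.05 without DMSO replicate 2, 0.07 without UNC1999 replicate 1, 0.22 without DMSO replicate 1 and -0.07 with normexp, and was called in none of these. It was 0.37 within the second slide row and -0.05 within the first.

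hsa-miR-27a-3p, the middle hairpin of the a cluster, gave 7.88, 7.47, 7.29 and 7.83 on the DMSO arrays. The UNC1999 arrays gave 7.97, 7.79, 7.85 and 7.73. DMSO replicates 2 and 3 lay below all UNC1999 arrays, and DMSO replicates 1 and 4 among them. The difference was 0.22 (SE 0.14, limma adjusted p = 0.19), with a 95% interval of -0.10 to 0.53. Without DMSO replicate 3 it was 0.05 and with normexp 0.03, called in neither. Within the slide rows it was -0.0016 and 0.58.

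hsa-miR-24-3p, which both clusters supply, measured 8.93, 8.74, 8.60 and 8.88 on the DMSO arrays. It measured 8.89, 8.88, 8.73 and 8.67 on the UNC1999 arrays. The groups overlapped over nearly their whole range. The difference was 0.0055 (SE 0.11, limma adjusted p = 0.96), and its 95% interval of -0.23 to 0.25 leaves room for changes of either sign. The probes gave 0.0026 and 0.0092. With each array left out the difference ranged from -0.11 to 0.05. It was -0.18 within the first slide row and 0.24 within the second.

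**Figure D2:**
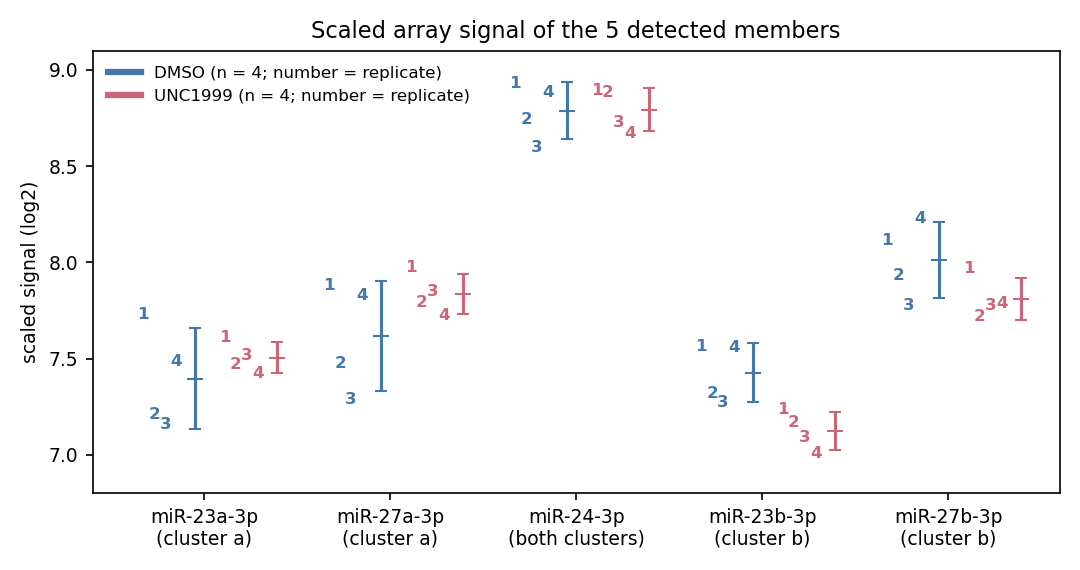
Scaled signal (log2) of the 5 detected members on each array, DMSO blue and UNC1999 red, where each digit is the replicate number at its value and the bar is the mean ± SD (n = 4). The groups are apart for hsa-miR-23b-3p (DMSO 7.27 to 7.56, UNC1999 7.004 to 7.23) and overlap for the others.

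**Figure D3:**
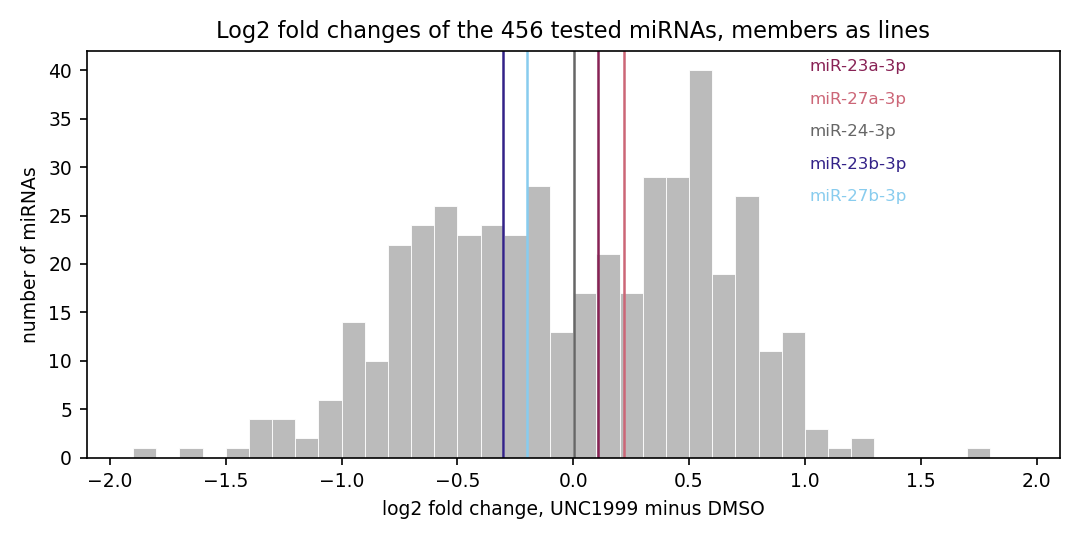
Number of miRNAs (vertical axis) by log2 fold change, UNC1999 minus DMSO (horizontal axis), for the 456 tested miRNAs, with a coloured line at each of the 5 tested members. The members lie between -0.30 and 0.22, near the middle of a distribution that runs from -1.84 to 1.77.

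The 5p arms are the opposite strands of the hairpins, which are usually degraded. Neither was detected. For hsa-miR-23a-5p the summed signal after background subtraction lay between -11.4 and 0.26 over the 8 arrays, and for hsa-miR-27a-5p between -14.2 and -2.96. The dimmest detected miRNA of an array had 7.72 to 13.2 on the same scale, and 0 of 160 spots of either arm were marked well above background. No fold change was therefore given, and the planned ratios of 5p to 3p arms could not be formed. The other arms from these loci, miR-23b-5p, miR-27b-5p, miR-24-1-5p and miR-24-2-5p, were detected on 0 of 8 arrays, as were miR-3074-5p and miR-3074-3p from the strand opposite MIR24-1. miR-23b-5p shares its seed with hsa-miR-23a-5p.

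To compare the clusters without a scaling factor of the array, the log2 ratio of the a to the b paralog was taken within each array. Only its change between groups was read, because the probes of a pair differ in brightness. The ratio of hsa-miR-23a-3p to hsa-miR-23b-3p was 0.17, -0.11, -0.11 and -0.07 on DMSO replicates 1 to 4. On UNC1999 replicates 1 to 4 it was 0.38, 0.30, 0.43 and 0.42. All UNC1999 arrays lay above all DMSO arrays, and groups likewise did not overlap in 59.3% of the ratios of any 2 miRNAs detected on all arrays. The mean ratio went from -0.03 ± 0.13 to 0.38 ± 0.06 (SD, n = 4), a rise of 0.41 (SE 0.07), or 1.33-fold, with an exact two-sided permutation p of 0.029.

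The ratio of hsa-miR-27a-3p to hsa-miR-27b-3p was -0.23, -0.46, -0.49 and -0.40 on the DMSO arrays. It was 0.0066, 0.076, 0.074 and -0.06 on the UNC1999 arrays. Again the groups did not overlap. The mean went from -0.40 ± 0.11 to 0.02 ± 0.07 (SD, n = 4), a rise of 0.42 (SE 0.07), or 1.34-fold, with an exact two-sided permutation p of 0.029. This is the smallest p that 4 against 4 arrays allow, and adjusted over the 2 ratios both p-values stayed at 0.029.

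**Figure D4:**
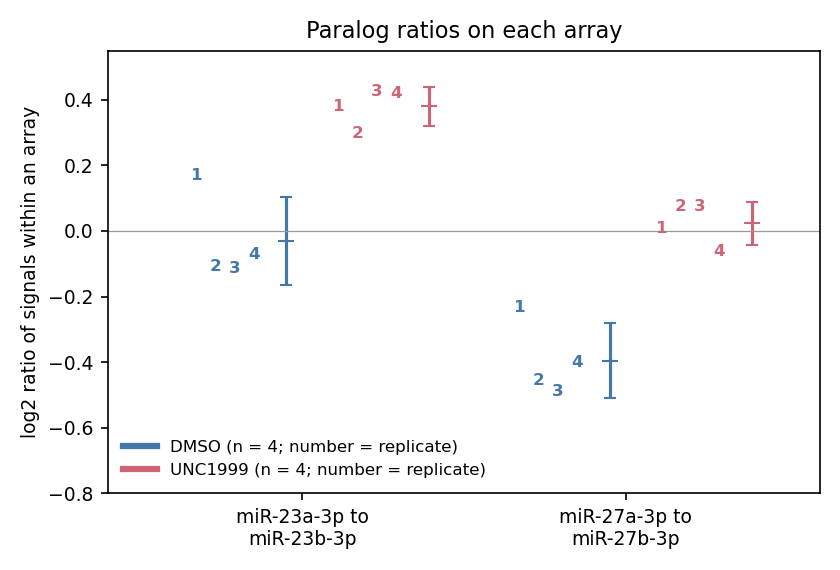
Log2 ratio of a to b paralog within each array (vertical axis), DMSO blue and UNC1999 red, where each digit is the replicate number at its value and the bar is the mean ± SD (n = 4). In both pairs every UNC1999 array lies above every DMSO array, by 0.41 and 0.42 on average.

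Unequal change of 2 miRNAs was common on these arrays. The shares of 59.3% and 62.6% were taken over the 59685 pairs of the 346 miRNAs detected on all arrays, and the paralog changes are thus near the background. Each of the 4 combinations of single probes gave a rise, 0.32 to 0.44 for miR-23 and 0.37 to 0.46 for miR-27, with groups that did not overlap. With normexp background correction the rises were 0.22 and 0.23 with a p of 0.029 in the exact permutation test. That setting adds an offset of 50 to every spot, and such an added constant by itself draws log2 ratios toward 0. How much of the smaller rise came from the offset was not tested.

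The rise was present within both slide rows, 0.42 and 0.48 for miR-23 and 0.30 and 0.54 for miR-27. With the row as a block it was 0.45 and 0.42. DMSO 1 and 4 and UNC1999 1 and 3 lay on the same side of the second principal component. Among them the rise was 0.35 for miR-23 and 0.36 for miR-27, and among the others 0.47 and 0.48. The sides were taken from these same data, so these values are a description only. The brightness of the arrays before scaling, given above, also differed between the groups, and its part in the rise was not tested. Leaving out any UNC1999 array raised the exact permutation p of the miR-23 ratio to 0.057. The rises were then 0.41, 0.44, 0.40 and 0.40 without replicates 1 to 4, and the groups still did not overlap. Without any single DMSO array the exact permutation p of the miR-23 ratio stayed at 0.029. That of the miR-27 ratio stayed at 0.029 without any single array of either group.

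Ratios between neighbours of a cluster, chosen after the data were seen and given without a test, changed less. hsa-miR-27a-3p to hsa-miR-23a-3p went from 0.22 to 0.33 and hsa-miR-27b-3p to hsa-miR-23b-3p from 0.58 to 0.69, with groups that overlapped. hsa-miR-24-3p gained on the b members, from 1.36 to 1.67 against hsa-miR-23b-3p and from 0.78 to 0.98 against hsa-miR-27b-3p, with no overlap. Against the a members it went the other way, from 1.39 to 1.29 for hsa-miR-23a-3p and from 1.17 to 0.96 for hsa-miR-27a-3p, with overlap. Groups did not overlap in 59.3% of the ratios of any 2 miRNAs detected on all arrays, so lack of overlap is not particular to these ratios.

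The direction of a single member depended on the scaling, while a factor per array leaves the paralog ratios as they are. Without scaling the median tested miRNA was 0.67 higher after UNC1999, and with scaling to spike-in RNAs 0.71. On these scales hsa-miR-23b-3p had differences of 0.39 and 0.45, neither called, and hsa-miR-23a-3p (0.81 and 0.86), hsa-miR-24-3p (0.70 and 0.75) and hsa-miR-27a-3p (0.92 and 0.97) were called higher. Relative to the median of all tested miRNAs, hsa-miR-23b-3p was at -0.28 without scaling and -0.27 with spike-ins, near its -0.31 with the 75th percentile. Over the 6 scalings and background corrections plotted, the scanner software's totals and the authors' processed values, the relative value was 0.09 to 0.32 for hsa-miR-27a-3p and -0.44 to -0.0002 for hsa-miR-23b-3p. It took both signs for hsa-miR-23a-3p (-0.02 to 0.22), hsa-miR-27b-3p (-0.37 to 0.10) and hsa-miR-24-3p (-0.32 to 0.33). For the b members the values nearest to 0 or above it came from normexp. There the median of all tested miRNAs was -0.29, against 0.011 with the 75th percentile. The differences of hsa-miR-23b-3p and hsa-miR-27b-3p themselves were -0.29 and -0.19 with normexp, near their -0.30 and -0.20 with the 75th percentile.

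**Figure D5:**
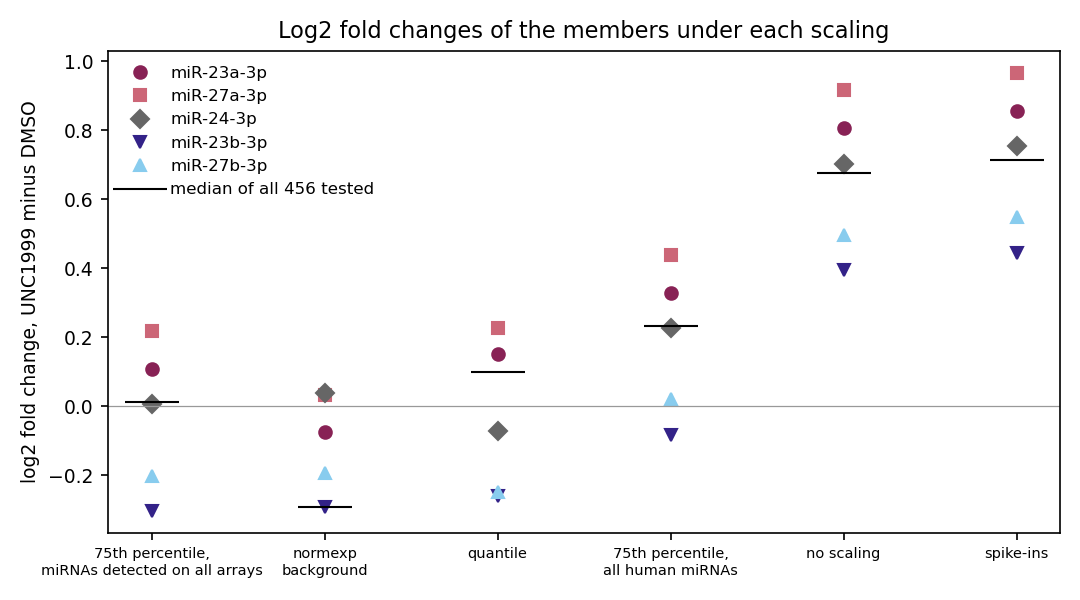
Log2 fold change of each member, UNC1999 minus DMSO (vertical axis), under 6 scalings or background corrections (horizontal axis), with the median of the 456 tested miRNAs as a bar. The members and the median stand highest without scaling and with spike-ins (median 0.67 and 0.71), and each a paralog lies above its b paralog under every setting plotted.

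Across the 8 arrays, members of a cluster resembled each other more than they resembled their paralogs. All correlations here are Pearson's r of scaled log2 signal over 8 arrays that share a slide and a scaling, given as a description. They span both groups, so they also carry the group change of the paralog ratios and are not a separate result. Correlations within a group were not computed. Among the DMSO arrays, both paralogs of each pair were higher on replicates 1 and 4 than on replicates 2 and 3. hsa-miR-23a-3p had r = 0.93 with hsa-miR-27a-3p, the highest of 455 other miRNAs, and r = 0.25 with its paralog hsa-miR-23b-3p, at rank 217. hsa-miR-27a-3p was nearest to miR-664b-5p (r = 0.96), had hsa-miR-23a-3p at rank 4, and had r = 0.34 with its paralog hsa-miR-27b-3p, at rank 200.

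hsa-miR-23b-3p and hsa-miR-27b-3p had r = 0.87 with each other, at ranks 60 and 23 of each other's lists. The nearest to hsa-miR-23b-3p was let-7a-5p (r = 0.98), and to hsa-miR-27b-3p miR-26a-5p (r = 0.96). hsa-miR-24-3p lay closer to the a members (r = 0.77 with hsa-miR-23a-3p and 0.77 with hsa-miR-27a-3p) than to the b members (0.54 with hsa-miR-23b-3p and 0.59 with hsa-miR-27b-3p), and nearest to miR-22-3p (r = 0.84). To the mean of the 5 detected members the most alike outside the family were miR-660-5p (r = 0.93), miR-9-3p (0.92), miR-4478 (0.91), miR-21-5p (0.91) and miR-4656 (0.89), none of them called.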

How the data were processed

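Mature miRNAs of INA-6 cells were hybridized to single-colour Agilent arrays, 4 per group. The authors deposited scanner output of Agilent Feature Extraction 10.7.3.1, with a background-subtracted intensity per spot that is not normalized between arrays. They also deposited log2 values of the same arrays, used as an alternative. The arrays' design file names hg19, so coordinates come from the RefSeq tables (GRCh38.p14), in which 2248 of 2549 array miRNAs matched. Spots of a probe were averaged without outlier spots (1392 to 2292 of 53144 per array), probes of a miRNA were summed, arrays were scaled to the 75th percentile, and values were floored at 8.98 before log2. The human miRNAs with detection throughout 1 or both groups (4 of 4 arrays) were fitted with limma 3.58.1 (lmFit, eBayes) in R 4.3.3. Each 3p member had 2 probes of 10 spots, with median spot variation of 4.6% to 8.6% and no saturated spot. The number of arrays limits the precision. In a simulation of DMSO against UNC1999 over 456 miRNAs, 71.9% of changes of 0.5 on the log2 scale and 97.1% of changes of 1 were recovered, and 3.41% of calls were false. The simulation drew errors independently for each array, so it held no alike pairs of arrays. Its changes were all larger than the difference of any member. These shares therefore do not give the recovery of the members' differences or the false calls on the real arrays. Members, markers and lists were chosen with earlier results of these data known. By the rule for naming, the text names the members, arms of the same loci and miRNAs with the same seed. The rule also covers the 5 most alike to the members' mean. The single miRNA nearest to a member was named outside the rule, after its correlation was seen. Alternatives covered the signal column, background, probe summary, floor, scaling, filter, variance model, blocks, thresholds, a t-test other than limma's and each array left out. The study's array methods name a moderated t-test, as limma's is.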

Additional observations from a re-analysis of the deposited data

Results flagged for a closer look

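Among 14 sets of 4 arrays examined (each detected member and each paralog ratio, by group), 1 held an array far from the others. The log2 ratio of hsa-miR-23a-3p to hsa-miR-23b-3p was 0.17 on DMSO replicate 1, while the other DMSO arrays lay between -0.11 and -0.07. About 1 in 20 such sets passes by chance. The value still lay below all UNC1999 arrays, and without it the rise of the ratio was 0.48.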

How the results depend on the processing

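The number of members called lower, 1 at the chosen settings, was 2 with the scanner software's totals, where hsa-miR-27b-3p joined (-0.29, limma adjusted p = 0.034). It was 0 with the authors' processed values, the 75th percentile over all human miRNAs, quantile normalization, no scaling, spike-ins and no detection filter. It was also 0 with the array row as a block, alike arrays averaged and a fold of at least 1.5. A t-test other than limma's gave 0 after adjustment and 1 without adjustment. With each array left out in turn the number was 0 to 2. The number called higher, 0, was 3 without scaling and 3 with spike-ins, where hsa-miR-23b-3p changed sign to 0.39 and 0.45. The rises of the paralog ratios were 0.38 to 0.48 for miR-23 and 0.39 to 0.47 for miR-27 with each array left out. With alike arrays averaged they were 0.41 and 0.42, where 2 against 2 cannot pass (exact permutation p = 0.33). No alternative turned their direction. A factor per array, the filter, the variance model, averaging alike arrays and a replicate block could not change these rises. Replicate numbers did not pair the arrays (correlations of deviations 0.18, 0.27, -0.42 and -0.39), and not every array matched its own number best. With the replicate number as a block hsa-miR-23b-3p lost its call (limma adjusted p = 0.059), leaving 0 members called, and the ratios rose by 0.41 and 0.42 with an exact sign-flip permutation p of 0.125, where 4 pairs cannot pass. Of the 456 tested miRNAs, 322 were called, against 156 with alike arrays averaged and 175 at a fold of 1.5. The t-test other than limma's called 156 after adjustment and 236 without adjustment. Without the filter, 195 of 2549 miRNAs were called. The calls that were higher, 164 of 322, were 192 of 280 with the percentile over all human miRNAs, 54 of 284 with normexp, 234 of 238 without scaling, 268 of 275 with spike-ins and 71 of 195 without the filter. Where no value above shows it, the cause was not tested.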
